A study of Mus musculus with 8 samples.

Results

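The genes described here are the mouse leukocyte surface antigens named as CD genes (Cd followed by a number and at most a letter) and the histocompatibility 2 (H2) genes of the major histocompatibility complex (MHC). They were taken by symbol from the deposited gene table, which gave 119 of 56324 gene models, 79 of them CD models and 40 of them H2 models. These models carry 116 distinct symbols. Their RNA was measured by RNA-seq in 4 libraries from spermatocytes and 4 from spermatids, and each of these 8 comes from C57BL/6 males aged 12 weeks that carry the Sam68 -/- label. Sam68 is an RNA-binding protein encoded by Khdrbs1. Both cell types carry the same knockout label, and what is compared here is the cell types, not genotypes. The cells were separated by sedimentation at unit gravity. The labels do not tie libraries to animals, and p-values therefore measure only the spread between these libraries, which may be technical. Where 4 values follow each other below, they are those of libraries 1 to 4 in this order.

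CD antigens are cell surface proteins numbered by the antibodies that recognise them. Many are receptors of T cells, B cells or macrophages, while others, such as the tetraspanins and the complement regulators, are made by a wide range of cells. MHC class I molecules pair with beta-2 microglobulin and present peptides from inside the cell, and class II molecules, which antigen-presenting cells make, present peptides from endosomes with the help of the invariant chain CD74 and of H2-DM. Male germ cells are known to carry little classical MHC class I on their surface. In the mouse CD46 is found mainly on the sperm acrosome, and Cd59b is known as a gene expressed mainly in the testis.

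Libraries held 49000266 to 93975960 reads. Khdrbs1 had 3421 to 4985 normalized counts (reads divided by a size factor of the library) in spermatocytes and 625 to 1129 in spermatids, which does not check the genotype. The cell labels were checked on marker genes: 12 of 12 spermatid markers were higher in spermatids, and of 10 spermatocyte markers 4 were lower and 1 was higher. Markers of other cells also moved. Of 14 macrophage markers 12 were higher in spermatids, and their sum was 2921 to 5420.0 in spermatocytes and 27686 to 34595 in spermatids, where most of it was Aif1. Of the other macrophage markers Csf1r had 11.3 to 35.4 and 623 to 1432, and C1qa 2.28 to 15.7 and 388 to 769. Mrc1 and Fcgr3 went the other way, with means of 1572 and 1125 in spermatocytes and 800 and 667 in spermatids. Neither was called (log2 fold changes -0.80 and -0.75). The Sertoli cell markers were lower in spermatids in 10 of 10 cases, with mean log2 levels of 9.49, 10.08, 11.61 and 10.43 in spermatocytes and 6.29 to 7.35 in spermatids. In bulk RNA fewer cells of a type and less RNA per cell cannot be told apart.

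Most of the CD genes that could be tested rose in spermatids, and the H2 genes were divided. Of 57 tested CD models 38 rose and 8 fell, where 32.5% and 29.8% of all models tested did so, with a median log2 fold change of 2.55 (1.70 after a correction for GC content). Of 22 tested H2 models 10 rose and 5 fell, with a median of 0.23 (-0.17 after that correction). The median over the 18188 models with a GC value was 0.25, and -0.32 after that correction, which thus lowered values in general. Among members with a spermatid mean of at least 100 normalized counts, the highest rises were those of Cd7 and Cd96, receptors of T and NK cells, the macrophage protein gene Cd5l, the surface protein gene Cd109, the T and NK cell receptor gene Cd2, the complement regulator gene Cd46 and the class Ib gene H2-M5. Among the falls were those of Cd36, Cd151 and both H2-DM beta chain genes. Of 119 models 79 reached 10 normalized counts in 4 or more libraries and were tested, 48 were called higher in spermatids and 13 lower, and 18 were not called. Calls were made at a limma adjusted p under 0.05 and a log2 fold change of 1 or more in size. The same rule called 32.5% of all 28735 tested models higher and 29.8% lower, 62.3% in either direction, so that the share of calls that were higher was 78.7% among the members and 52.2% overall. All 79 tested members have a GC value. Over the 18188 models with such a value 35.4% were called higher and 21.1% lower, and 62.7% of the calls were higher. The correction for GC content took this share of calls to 46.05% and that of the members to 75.9%. With that correction 28 of the 61 called member values moved by over 1.5 times, among them Cd109 (from 5.12 to 4.42), Cd46 (from 4.90 to 3.77) and Cd36 (from -2.11 to -3.30). The median log2 fold change was 1.78 among the tested members and -0.01 over all models tested. A gene that is low in spermatocytes entered the test only if it was higher in spermatids: 17 of the 48 risers had a spermatocyte mean below 10 normalized counts, so these counts do not describe all 119 models. Spermatid libraries all lay above spermatocyte libraries in 46 of the 79 tested models and all below them in 9, against 34.2% and 32.2% of all models tested.

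**Figure D1:**
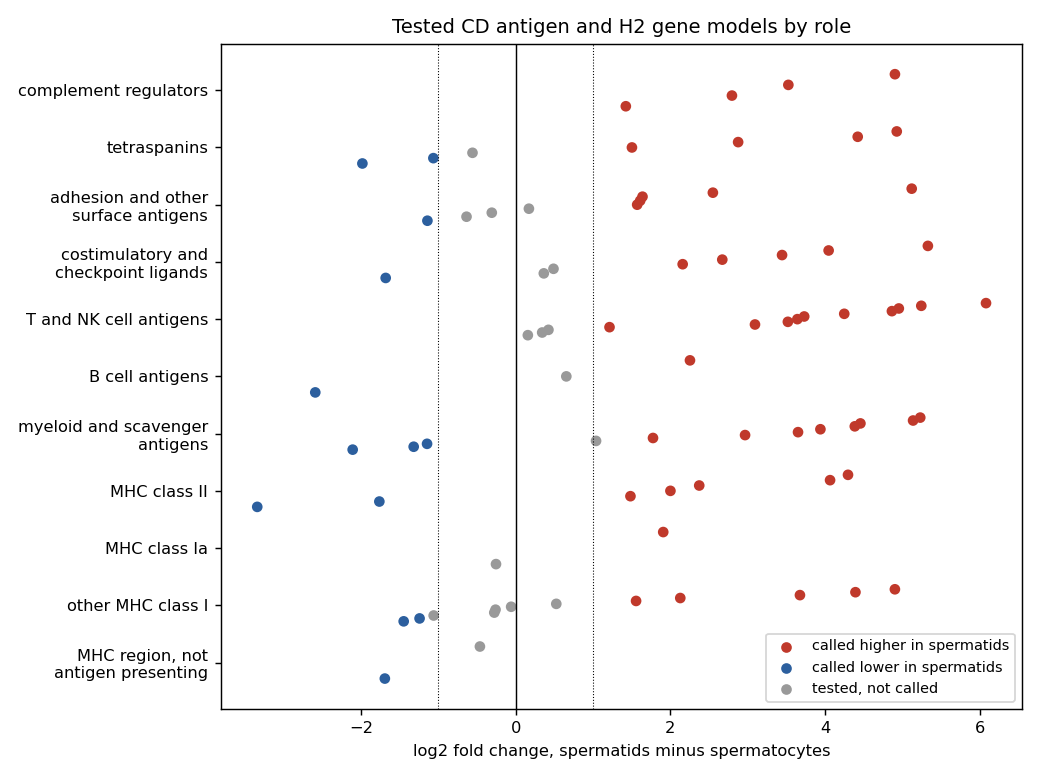
Log2 fold changes of the 79 tested models, spermatids minus spermatocytes, grouped by role on the vertical axis. Each point is a gene model, red where called higher in spermatids (48), blue where called lower (13) and grey where not called (18), and dotted lines mark the fold threshold of 1.

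The complement regulators, which protect cells from complement attack, were all called higher in spermatids, as were 32.5% of all models tested. Cd46, on chromosome 1 from 195041835 to 195092249 of mm10, encodes a cofactor for the breakdown of complement C3b. It had 42.7, 28.5, 52.6 and 18.3 normalized counts in spermatocytes and 836, 750.4, 1242 and 1363 in spermatids. The groups did not overlap, and spermatid libraries 3 and 4 were the highest (log2 fold change 4.90, SE 0.35, adjusted p = 1.2e-07 by limma). Cd55, the decay-accelerating factor gene, had 378 to 615 normalized counts in spermatocytes and 2912 to 4292 in spermatids, again with spermatid libraries 3 and 4 highest (log2 fold change 2.80, SE 0.21, adjusted p = 2.0e-07 by limma).

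Cd59a and Cd59b lie next to each other on chromosome 2 and encode inhibitors of the membrane attack complex. Cd59b rose from 56.98 ± 10.7 to 680.2 ± 179 normalized counts (± SD over 4 libraries each, with a log2 fold change of 3.53, SE 0.28, adjusted p = 2.7e-07 by limma), and its groups did not overlap. Cd59a had 207, 185, 568 and 284 in spermatocytes and 628, 521, 985 and 1010.0 in spermatids. Spermatocyte library 3 stood above spermatid library 2, so the groups overlapped (log2 fold change 1.42, SE 0.36, adjusted p = 0.0033 by limma). Cd59a was not called with equal totals (0.99) or after a correction for GC content (0.71). Near-identical parts of these neighbours may share reads.

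**Figure D2:**
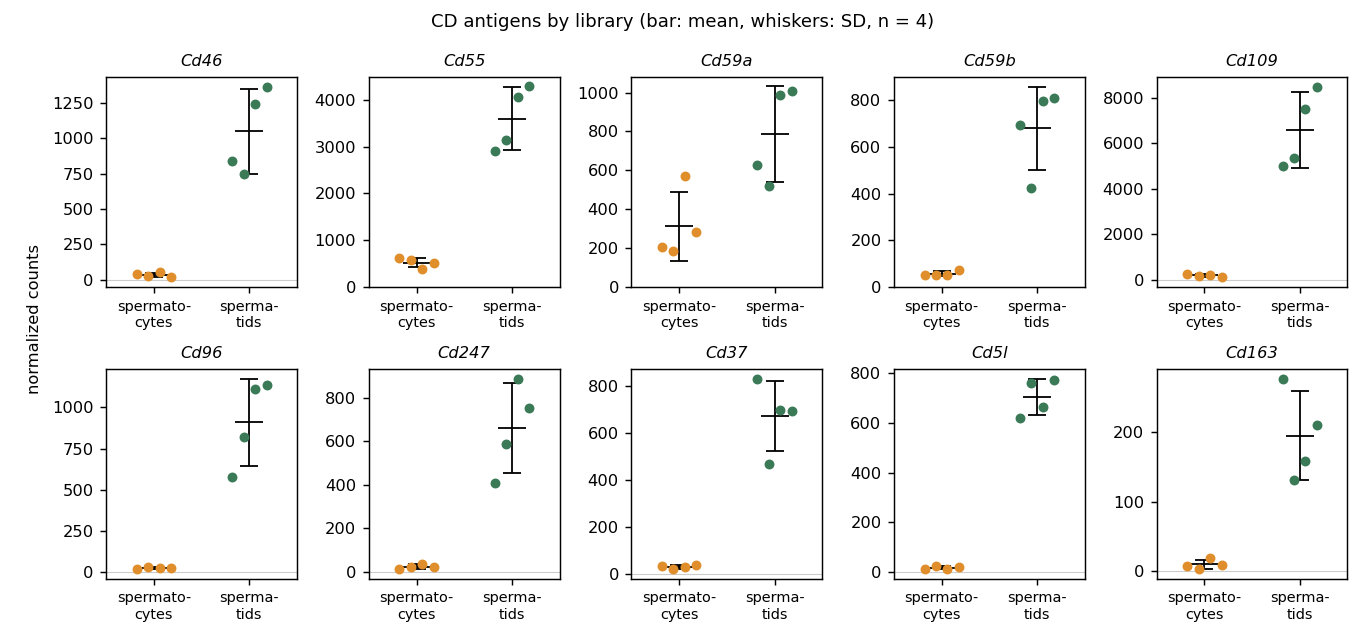
Normalized counts of 10 CD genes in each library, orange for spermatocytes and green for spermatids, with the mean as a bar and the SD as whiskers (n = 4 each). Every gene shown has a higher mean in spermatids, and the groups overlap in Cd59a alone among them.

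Tetraspanins, membrane proteins that organise other receptors into domains, moved in both directions: of 7 tested, 4 rose, 2 fell and 1 was not called. Over all models tested 32.5% rose and 29.8% fell, so movement in both directions is not particular to tetraspanins. Cd9, which on the egg is needed for fusion with sperm, had 23.4 to 52.6 normalized counts in spermatocytes and 201 to 391.8 in spermatids (log2 fold change 2.88, SE 0.32, adjusted p = 5.8e-06 by limma). Cd37 and Cd53 are known as leukocyte tetraspanins. Cd37 rose from 30.6 ± 7.94 to 674 ± 150.3 normalized counts (± SD over 4 libraries each, with a log2 fold change of 4.42). Cd53 had 2.42, 7.85, 0 and 0 in spermatocytes and 129.9, 65.4, 40.5 and 70.7 in spermatids. Its log2 fold change was 4.93, and it was 3.70 without spermatocyte libraries 3 and 4, which are those at 0, and 5.57 without spermatocyte library 2. Cd82 rose by 1.504 on the log2 scale.

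Cd151, a partner of laminin-binding integrins, had the steepest fall of the family. It had 1408, 1279.7, 1270.3 and 1647 normalized counts in spermatocytes and 462, 427, 311 and 251 in spermatids. The groups did not overlap (log2 fold change -1.98, SE 0.23, adjusted p = 7.6e-06 by limma). Cd81, a relative of Cd9, had 396, 458, 1222 and 825 in spermatocytes and 255 to 362 in spermatid libraries. Its log2 fold change was -1.06 as called. Without spermatocyte library 3 it was -0.76, without spermatocyte library 4 -0.95, without spermatid library 2 -0.97 and without both spermatocyte libraries 3 and 4 -0.44, none of them called. The Sertoli cell markers were highest in the same spermatocyte libraries 3 and 4, and their part in the fall of Cd81 was not tested. Cd63, a tetraspanin of lysosomes and secretory vesicles, was at -0.56 and not called.

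Among adhesion and other surface antigens Cd109 had the largest change. Cd109, on chromosome 9 from 78615542 to 78716259, encodes a protein held by a lipid anchor that is known to bind TGF-beta. It had 239, 188, 233 and 108 normalized counts in spermatocytes and 4996, 5336, 7503 and 8487 in spermatids. The lowest spermatid library thus lay far above the highest spermatocyte library (log2 fold change 5.12, SE 0.28, adjusted p = 1.1e-08 by limma, 34.3-fold in mean counts). Of 9 tested genes of this group 5 rose, 1 fell and 3 were not called, against 32.5% higher and 29.8% lower of all models tested. The others that rose were the sialomucin gene Cd34 (2.55), the endosialin gene Cd248 (1.64), Cd24a (1.61) and Cd38 (1.57), an enzyme that uses NAD. Cd34 and Cd248 are also known from blood vessels. Of 7 tested endothelial markers 5 were higher and 1 lower in spermatids, with sums of 539 to 593 and 1842 to 2169, and their part was not tested. Cd24a was at 0.77 and Cd38 at 0.59 after the GC correction, neither called. Cd38 also was not called with equal totals (1.15), by edgeR (1.19), or without spermatocyte library 4 (1.01), spermatid library 3 (1.51) or spermatid library 4 (1.46).

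Cd164 and Cd320 were among the most abundant members in both cell types. Cd164, which encodes the sialomucin endolyn, had 25413, 27009, 22826 and 11835 normalized counts in spermatocytes and 21326 to 25078 in spermatid libraries. Spermatocyte library 4 was low, and the groups overlapped (log2 fold change 0.17, not called, and -0.26 with equal totals, so that its sign depends on the scaling). Cd320, the receptor for the vitamin B12 carrier transcobalamin, had 8914, 7885, 3565 and 8203 in spermatocytes and 3293, 4429, 2717 and 2199 in spermatids. Spermatocyte library 3 lay within the spermatid range (log2 fold change -1.14, SE 0.30, adjusted p = 0.0046 by limma). Without spermatid library 4 the change was -0.98 and not called. Cd52, a small glycopeptide antigen of leukocytes and of the epididymis, had 15.9 to 33.1 normalized counts in the 8 libraries.

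Among tested models, antigens of T and NK cells had the highest median change of the groups described, 3.64 on the log2 scale. Several defining genes of those cells were near 0. Of 21 models 13 were tested, 10 rose, 0 fell and 3 were not called, against 32.5% higher and 29.8% lower of all models tested. Genes low in spermatocytes, such as Cd7 (mean 1.46) and Cd2 (3.85), entered the test only if higher in spermatids. Neither the count nor the median thus describes all 21 models. Cd96, an adhesion receptor of T and NK cells on chromosome 16 from 46035653 to 46120252, had 16.1, 28.5, 25.7 and 20.6 normalized counts in spermatocytes. It had 577, 819.6, 1109 and 1137 in spermatids, with no overlap and the lowest value in library 1 (log2 fold change 5.24, SE 0.30, adjusted p = 2.0e-08 by limma). A model of Cd247, the zeta chain of the T cell receptor complex, had 11.3 to 36.9 in spermatocytes and 410.2, 589, 889 and 755 in spermatids (log2 fold change 4.86, SE 0.37, adjusted p = 2.2e-07 by limma). In GENCODE its exons share 3007 bases with Pou2f1 on the opposite strand, and Pou2f1 had 1040.1 ± 204 and 1764 ± 260 normalized counts (± SD over 4 libraries each). The strand setting of the counting is not given, so reads of both genes may be mixed.

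Other receptors of this group rose from very low levels. Cd7, a receptor of T and NK cells, had 0 to 3.93 normalized counts in spermatocytes and 94.0, 137, 169.6 and 175 in spermatids (log2 fold change 6.08). In GENCODE the antisense gene Gm11775 overlaps its model over 2728 bases and shares 122 exonic bases with it, so its reads are uncertain. Cd2, which in the mouse binds CD48, had 2.24 to 4.91 in spermatocytes and 107, 157, 165 and 159 in spermatids (4.95). Its partner Cd48 rose by 3.52 (2.81 without spermatocyte libraries 3 and 4). Cd27, a member of the TNF receptor family, rose by 4.25. In GENCODE its model overlaps the span of Vamp1, on the opposite strand, over 4406 bases but none of the Vamp1 exons. Vamp1 rose from 345 ± 159 to 2371 ± 390 normalized counts (± SD over 4 libraries each, with a log2 fold change of 2.88). Cd160, a receptor held by a lipid anchor, had 23.98 to 46.7 in spermatocytes and 309 to 359 in spermatids, beside Pdzk1, which shares 68 exonic bases with it on the opposite strand and rose from 528 ± 87.2 to 16381 ± 3330 (± SD over 4 libraries each).

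Cd84, a homotypic adhesion receptor, rose by 1.21 and was not called with equal totals (0.78), quantile normalization (0.82) or the GC correction (0.094). The T cell co-receptor gene Cd4 rose from 7.97 ± 6.91 to 96.7 ± 42.8 normalized counts (± SD over 4 libraries each). Cd3e, a chain of the T cell receptor complex, rose from 3.66 ± 5.25 to 41.1 ± 25.3, while Cd3d had 119 ± 59.5 and 146 ± 19.3 and was not called. Without spermatocyte libraries 3 and 4 the log2 fold change of Cd4 went from 3.73 to 4.72 and that of Cd3e from 3.64 to 4.73, and it was 3.14 for Cd4 without spermatocyte library 2 and 4.33 for Cd3e without spermatocyte library 4. Cd3g and Cd8a did not pass the filter and had means of 1.40 and 1.36 in spermatids. The T and NK cell markers summed to 150.1 to 377 in spermatocytes and 395 to 474 in spermatids, with 3 of 5 tested higher, and Prf1 and Ncr1 were at 0 in all libraries. Their part in the rises was not tested.

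B cell antigens did not share a direction: 3 of 6 models were tested, and 1 rose, 1 fell and 1 was not called. The shares over all models tested were 32.5% higher and 29.8% lower. Cd79a and Cd79b, the signalling chains of the B cell receptor, did not pass the filter, with spermatid means of 3.38 and 2.91. Cd180, a relative of Toll-like receptors, had 1.61 to 15.7 in spermatocytes and 15.0 to 40.3 in spermatids (2.25, and 2.97 without spermatocyte libraries 3 and 4). The B cell markers were higher in spermatids in 6 of 7 cases, with sums of 266 to 342 and 1344 to 2153, and their part was not tested.

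Cd72, a B cell co-receptor on chromosome 4 from 43446462 to 43454629, had among the highest counts of all members, 10034 to 17860.0 in spermatocytes and 20349 to 23548 in spermatids. Its log2 fold change of 0.66 was below the fold threshold although the groups did not overlap (limma adjusted p = 0.0079). In GENCODE 1423 bases of its exons are shared with Tesk1, a testis kinase gene on the opposite strand. Tesk1 had 22508 to 42349.6 normalized counts in spermatocytes and 45519 to 62011 in spermatids, with a log2 fold change of 0.68. The level listed for Cd72 may therefore hold reads of Tesk1.

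Of 12 tested myeloid and scavenger antigens among 20 models 8 rose, 3 fell and 1 was not called. Of all models tested 32.5% were called higher and 29.8% lower. Genes low in spermatocytes, such as Cd300a (mean 0) and Cd209g (0.94), entered the test only if higher in spermatids. These counts therefore do not describe all 20 models. Cd5l, a protein that macrophages secrete, had 12.1, 25.5, 14.5 and 21.7 normalized counts in spermatocytes and 622, 762, 662 and 772 in spermatids (log2 fold change 5.23, SE 0.29, adjusted p = 1.5e-08 by limma). Its spermatid libraries were close together. Cd163, the macrophage receptor for haptoglobin and haemoglobin, had 2.94 to 19.0 in spermatocytes and 278, 132, 159 and 211 in spermatids (4.38, and 5.04 without spermatocyte libraries 3 and 4). Cd68, a lysosomal protein of macrophages, rose from 26.8 ± 11.3 to 226 ± 108 (± SD over 4 libraries each). Cd300a, an inhibitory receptor, was at 0 in the 4 spermatocyte libraries and had 16.5 to 46.7 in spermatids, at least 12.1-fold higher against a floor of 3 reads per library. These genes rose together with most of the macrophage markers given above, whose part in the rises was not tested. Cd14, the co-receptor for bacterial lipopolysaccharide, was at 1.04 and not called (limma adjusted p = 0.053), but was called by edgeR and DESeq2 (1.08 in both), among others.

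The falls in this group were those of Cd36, Cd302 and Cd177. Cd36, a receptor for fatty acids and oxidised lipids, had 368, 248, 235 and 221 normalized counts in spermatocytes and 115, 41.1, 40.5 and 68.6 in spermatids, with no overlap (log2 fold change -2.11, SE 0.36, adjusted p = 1.9e-04 by limma). Cd302, a lectin-like receptor, had 178, 240.4, 523 and 236 in spermatocytes and 94.4 to 139.7 in spermatid libraries. Its highest value was in spermatocyte library 3, where the Sertoli cell markers were also highest, and their part in the fall was not tested. Its change of -1.32 was just under the fold threshold without that library (-0.9995) and -0.94 without spermatocyte libraries 3 and 4, neither called. Cd177, an antigen of neutrophils, fell by 1.14 on the log2 scale, and was not called without spermatocyte library 4 (-0.90), spermatid library 1 (-1.03) or spermatid library 4 (-0.94), without spermatocyte libraries 3 and 4 (-1.01) or with a pseudocount of 8 (-0.99).

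Costimulatory and checkpoint ligands rose in 5 of 8 tested cases and fell in 1, against 32.5% and 29.8% of all models tested. Cd47, the signal that restrains uptake by phagocytes, had 28.5 to 68.5 normalized counts in spermatocytes and 339, 154, 206 and 221 in spermatids (log2 fold change 2.16, SE 0.36, adjusted p = 1.5e-04 by limma). Cd200, a ligand that inhibits myeloid cells, had 10.3 to 45.8 and 161 to 276 (2.67). Cd86, which activates T cells through CD28, had 6.45, 1.96, 0 and 0 in spermatocytes and 72.0 to 104 in spermatid libraries (5.33). Without the spermatocyte libraries at 0 the change of Cd86 was 4.21, and without spermatocyte library 1 it was 5.92. Cd40 (4.05) and Cd83 (3.44) also rose from means below 4 normalized counts. Cd274, which encodes the checkpoint ligand PD-L1, went the other way, with 157, 190.4, 479 and 223 in spermatocytes and 173, 28.04, 72.1 and 82.7 in spermatids. Spermatid library 1 overlapped the spermatocytes (log2 fold change -1.68, SE 0.51, adjusted p = 0.0099 by limma), and without spermatocyte libraries 3 and 4 the change was -1.22 and not called (limma adjusted p = 0.060). Spermatocyte library 3, the highest for Cd274, also had the highest Sertoli cell markers, whose part was not tested.

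MHC class II genes moved in both directions, as did all models tested, of which 32.5% were called higher and 29.8% lower. The genes for the presenting chains, the invariant chain and H2-DM alpha rose, while both genes for H2-DM beta fell, giving 5 rises and 2 falls among 7 tested of 11 models. H2-DM is a heterodimer of an alpha and a beta chain that loads peptides onto class II molecules, and its genes lie side by side on chromosome 17. H2-DMa, from 34122831 to 34139101, had 189, 162, 185 and 231 normalized counts in spermatocytes and 1021, 943, 1190.5 and 836 in spermatids (log2 fold change 2.37, SE 0.21, adjusted p = 7.7e-07 by limma). H2-DMb1, from 34153190 to 34160229, had 578, 556, 404 and 772 in spermatocytes and 133, 229.9, 144 and 169 in spermatids (log2 fold change -1.76, SE 0.27, adjusted p = 7.4e-05 by limma). H2-DMb2, between them from 34145265 to 34151553, fell from 63.9 ± 12.1 to 6.03 ± 3.29 (± SD over 4 libraries each, with a log2 fold change of -3.34). The groups did not overlap in any of the 3 genes, and no alternative tried ended these calls or turned their direction, except that H2-DMb2 was not tested with the filter of 50 normalized counts. The beta chain genes are close relatives and may share reads.

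The presenting chains had low levels. H2-Aa, a class II alpha chain gene, had 3.22, 6.87, 16.8 and 0 normalized counts in spermatocytes and 184, 145, 42.0 and 75.1 in spermatids. Its log2 fold change was 4.30 ± 0.78 SE (limma adjusted p = 3.1e-04), and it was 3.53 without spermatocyte library 4, which was at 0, and 4.91 without spermatocyte library 3. Cd74, the invariant chain gene on chromosome 18, had 7.85 to 29.1 in spermatocytes and 376, 339, 101 and 269.9 in spermatids (4.07). H2-Eb1 had 13.7 to 29.1 and 142, 121, 42.0 and 66.4 (2.001), and H2-Ab1 83.4 to 178 and 423, 275, 319.8 and 331 (1.48). Spermatid library 3 was the lowest of the 4 for H2-Aa, Cd74 and H2-Eb1, and library 1 the highest. Macrophages are known to carry class II. Of the 14 macrophage markers 10 were highest in spermatid library 1, and their mean log2 level was 9.28, 8.46, 8.51 and 9.05 in spermatids. Their summed level did not follow this order (29728, 27686, 33542 and 34595), and Aif1, most of that sum, was lowest in library 1. Their part in the class II values was not tested.

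**Figure D3:**
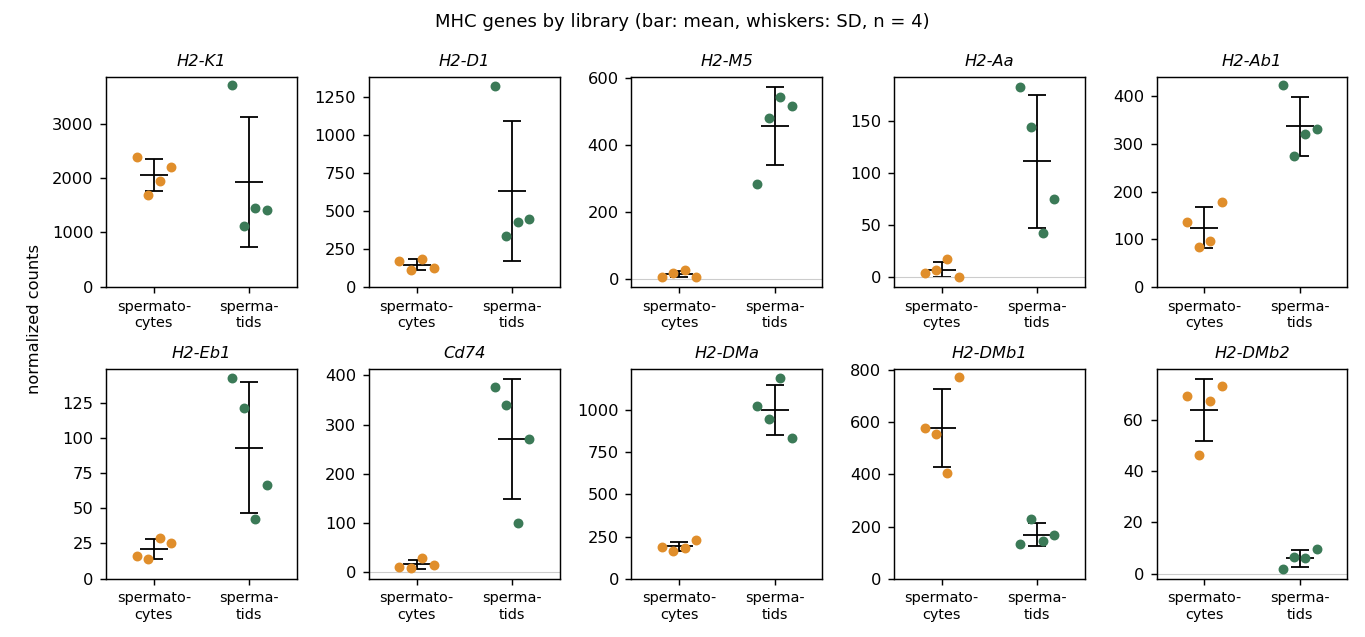
Normalized counts of 10 MHC genes in each library, orange for spermatocytes and green for spermatids, with the mean as a bar and the SD as whiskers (n = 4 each). H2-DMa is higher and H2-DMb1 and H2-DMb2 are lower in spermatids, and spermatid library 1 stands above the other 3 for H2-K1 and H2-D1.

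The upstream sequences of class II genes that rose and fell, and of both classical class I genes, are given to show what these starts share. Class II and class I promoters are known to carry a CCAAT box in either orientation and, in front of it, an element related to the cyclic AMP response element TGACGTCA. Each window is the 250 bases before the RefSeq start site (GRCm38.p6, the same assembly as mm10), on the gene's own strand, with CCAAT and the shorter form TGACG of either strand in capitals. The windows are chr17:34287824-34288073 (minus strand) for H2-Aa, chr17:34305617-34305866 (plus) for H2-Eb1, chr17:34122582-34122831 (plus) for H2-DMa, chr17:34152941-34153190 (plus) for H2-DMb1, chr17:34144999-34145248 (plus) for H2-DMb2, chr17:34000334-34000583 (minus) for H2-K1 and chr17:35262844-35263093 (plus) for H2-D1.
H2-Aa: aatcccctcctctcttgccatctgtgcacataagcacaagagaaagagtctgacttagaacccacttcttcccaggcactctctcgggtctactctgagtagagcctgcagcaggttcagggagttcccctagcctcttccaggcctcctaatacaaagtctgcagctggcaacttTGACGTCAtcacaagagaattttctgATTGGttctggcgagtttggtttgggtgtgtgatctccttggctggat
H2-Eb1: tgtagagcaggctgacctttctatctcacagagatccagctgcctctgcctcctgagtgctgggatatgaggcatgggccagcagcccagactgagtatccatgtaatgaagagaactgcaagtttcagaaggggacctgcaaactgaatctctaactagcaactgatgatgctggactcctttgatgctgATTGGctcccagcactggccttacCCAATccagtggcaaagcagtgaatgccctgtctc
H2-DMa: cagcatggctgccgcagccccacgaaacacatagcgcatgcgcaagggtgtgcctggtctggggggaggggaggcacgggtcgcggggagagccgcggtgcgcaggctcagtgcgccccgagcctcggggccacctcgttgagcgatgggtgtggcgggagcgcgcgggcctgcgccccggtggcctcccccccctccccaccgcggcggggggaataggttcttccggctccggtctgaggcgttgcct
H2-DMb1: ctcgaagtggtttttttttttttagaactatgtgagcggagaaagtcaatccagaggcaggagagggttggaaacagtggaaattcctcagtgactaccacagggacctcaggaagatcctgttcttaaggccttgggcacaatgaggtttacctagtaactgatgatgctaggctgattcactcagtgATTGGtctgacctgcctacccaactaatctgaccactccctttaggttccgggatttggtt
H2-DMb2: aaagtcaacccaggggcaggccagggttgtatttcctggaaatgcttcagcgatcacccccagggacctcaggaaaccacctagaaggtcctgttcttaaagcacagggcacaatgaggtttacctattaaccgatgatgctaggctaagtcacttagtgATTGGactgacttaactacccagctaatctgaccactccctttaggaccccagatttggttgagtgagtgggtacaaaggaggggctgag
H2-K1: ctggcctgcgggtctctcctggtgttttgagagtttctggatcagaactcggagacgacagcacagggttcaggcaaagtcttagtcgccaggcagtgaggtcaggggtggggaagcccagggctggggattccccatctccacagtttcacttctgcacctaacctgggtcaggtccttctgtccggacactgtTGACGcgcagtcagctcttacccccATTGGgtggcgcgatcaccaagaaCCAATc
H2-D1: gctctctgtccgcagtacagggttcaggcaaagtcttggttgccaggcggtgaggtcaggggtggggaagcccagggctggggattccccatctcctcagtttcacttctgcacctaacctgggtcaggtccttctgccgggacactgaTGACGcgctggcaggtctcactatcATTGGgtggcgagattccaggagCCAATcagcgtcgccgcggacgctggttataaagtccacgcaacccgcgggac

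CCAAT, sought on both strands, was found in 6 of these 7 windows and in 33.8% of 32851 RefSeq windows of the same length. The exception was H2-DMa, whose window is taken from the RefSeq start nearest to that of the deposited model, of 2 such starts. The other H2-DMa start was not searched. H2-K1 also had 2 RefSeq starts, of which the nearest was taken. The start used for H2-D1 lies 68 bases inside its deposited model. H2-DMb1 and H2-DMb2, which fell, and H2-Aa and H2-Eb1, which rose, each had this box on the strand opposite to the gene, and H2-Eb1 had it on the gene's strand as well. The shorter form TGACG, sought on both strands, was found in H2-Aa, H2-K1 and H2-D1 and in 17.8% of all windows. It overlaps the full TGACGTCA, which was found in H2-Aa alone among the 7 and in 1.55% of all windows. A match is a run of letters and not a measured site. The 7 windows come from gene classes whose promoters are known to carry CCAAT, so its share among them is not a test. H2-Ab1 and Cd74, which also rose, are not among the 7 windows. RefSeq held an upstream sequence for 84 of the 116 member symbols.

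The classical class I genes did not move together. H2-K1, on chromosome 17 from 33996013 to 34000334, had 2377, 1694, 1948 and 2197 normalized counts in spermatocytes and 3704, 1124, 1444 and 1419 in spermatids. It was not called (log2 fold change -0.25, SE 0.32, adjusted p = 0.49 by limma), and spermatid library 1 lay above all other libraries. H2-D1, from 35263026 to 35267497, had 168, 111, 182 and 124 in spermatocytes and 1320.1, 337, 428 and 448 in spermatids (log2 fold change 1.91, SE 0.39, adjusted p = 7.6e-04 by limma). Spermatid library 1 was again the highest. Without it the change of H2-D1 was 1.48, and its groups still did not overlap. The groups of H2-K1 overlapped with all libraries and were apart only without spermatid library 1, with a change of -0.62 (limma adjusted p = 0.0121) that was under the fold threshold. Both genes belong to a family of close copies, so their reads are uncertain.

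Over all models tested 32.5% rose and 29.8% fell. Of 26 other class I models, those of the Q, T, M, K2 and Bl loci, 12 were tested, 5 rose, 2 fell and 5 were not called. H2-M5 had the highest level per kilobase of exon of these in spermatids, 169 normalized counts, with 8.06, 18.6, 29.1 and 7.99 in spermatocytes and 284, 481, 542 and 516 in spermatids (log2 fold change 4.90, SE 0.42, adjusted p = 5.8e-07 by limma). In contrast to the classical genes it was lowest in spermatid library 1. H2-M10.3, of a family known from pheromone-sensing neurons, was at 0 in the spermatocyte libraries and had 13.1 to 28.3 in spermatids, at least 6.91-fold higher against the floor of 3 reads per library. H2-T23, which encodes the Qa-1 molecule recognised by NK cell receptors, rose by 2.13 on the log2 scale, and by 1.43 without spermatocyte libraries 3 and 4. H2-Q4 rose by 1.56, and H2-K2 from 1.18 ± 0.85 to 27.8 ± 16.6 (± SD over 4 libraries each).

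H2-Q6 and H2-T24 were called lower. H2-Q6 had 126 to 163 normalized counts in spermatocytes and 133, 44.9, 30.02 and 65.3 in spermatids. Library 1 was within the spermatocyte range, and the change of -1.24 was -0.93 and not called without spermatid library 3. H2-T24 had 11.3, 61.8, 80.5 and 54.8 in spermatocytes and 8.96 to 23.9 in spermatids. Its change of -1.45 was not called when any library other than spermatocyte library 1 or spermatid library 4 was left out (limma adjusted p between 0.0515 and 0.108), and it was -2.05 without spermatocyte library 1 and -0.81 without spermatocyte libraries 3 and 4. The last 2 models lie in the MHC region but encode no antigen-presenting molecule. H2-Ke2, which encodes a prefoldin subunit, was at -0.46 and not called, and the model that joins H2-Ke6 and the zinc transporter gene Slc39a7 fell from 1411 ± 366 to 451 ± 191 (± SD over 4 libraries each, with a log2 fold change of -1.69).

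The 40 models that did not pass the filter were 22 CD and 18 H2 models. Of these 7 had 0 reads in all libraries, and 35 had a mean below 10 normalized counts in both groups. H2-Oa, H2-Ob and H2-Eb2 were among them, with means of 1.44 normalized counts or less in both cell types. At this depth 3 reads correspond to 2.42 to 4.504 normalized counts per library, and this floor covers counting error alone.

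Levels were compared between genes per kilobase of exon, with exons taken from GENCODE. In spermatids Cd72 had the highest mean level of all members, 6389 normalized counts per kilobase, with the overlap with Tesk1 given above, followed by Cd164 with 5267, H2-Ke2 with 1846, Cd320 with 1096 and Cd109 with 954. In spermatocytes Cd164 stood first with 4893, ahead of Cd72 with 4136, H2-Ke2 with 2551 and Cd320 with 2477, where Cd109 had 27.8. On this scale H2-K1 had 699 in spermatocytes and 655 in spermatids, and H2-D1 had 56.7 and 246.

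The genes that work with MHC molecules held both rises and falls, and 32.5% of all models tested were called higher and 29.8% lower. Of 16 tested genes of class I peptide loading and its control 6 rose and 1 fell. Their median log2 fold change was 0.26, against -0.01 over all models tested and 0.25 over those with a GC value. Tapbpl, a relative of the loading factor tapasin, rose from 60.4 ± 11.0 to 1567 ± 140.0 normalized counts (± SD over 4 libraries each, with a log2 fold change of 4.69, SE 0.22, adjusted p = 4.0e-09 by limma), while Tapbp, tapasin itself, fell from 3912 ± 355 to 1889 ± 250.3 (-1.06, and -0.96 and not called without spermatid library 4). Named after their values were seen, Nlrc5, the activator of class I transcription, rose by 1.95 and Irf2 by 3.62. B2m, the partner chain of class I, had 878 ± 283 and 1706 ± 272 (± SD over 4 libraries each, with a log2 fold change of 1.00). That value lies at the threshold: B2m was not called with equal totals (0.57), quantile normalization (0.65), edgeR (0.96) or the GC correction (0.045), among others.

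Of 8 tested genes of class II assembly and loading 3 rose and 3 fell. The shares were 32.5% and 29.8% over all models tested and 35.4% and 21.1% over those with a GC value. Ctss, a protease that trims the invariant chain and is abundant in macrophages, had 0, 0, 15.7 and 4.57 normalized counts in spermatocytes and 434, 197, 183 and 290.6 in spermatids. Its log2 fold change was 6.39, and 7.20 without spermatocyte library 3 and 8.03 without spermatocyte libraries 3 and 4. Rfxap and Rfx5 encode subunits of the RFX complex that binds class II promoters. Rfxap fell by 3.04 on the log2 scale, from 2931 ± 279 to 375 ± 165, and Rfx5, named after its values were seen, by 2.203. Ciita, the master activator of class II transcription, did not pass the filter, with means of 3.43 and 9.16. Among 12 tested partners of tetraspanins and other members 3 rose and 4 fell, to be read against the same shares. Thbs1, a ligand of CD47, had the lowest value (-2.50).

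The members that rose differed in which spermatid library had their highest value. Of the 48 risers 21 were highest in spermatid library 1 and 17 in library 4. Among the class II genes 4 of 5 and among the myeloid antigens 5 of 8 were highest in library 1, whereas 4 of 4 complement regulators and 4 of 5 adhesion antigens were highest in library 4. Of the 10 T and NK cell antigens that rose 2 were highest and 6 were lowest in library 1. Among the 4 spermatid libraries, library 1 also had the highest mean log2 level of several marker lists. These were the macrophage (9.28), Leydig cell (7.93), peritubular myoid cell (9.32), spermatogonium (8.93) and spermatocyte (12.96) markers. The erythroid cell (3.28) and epididymal epithelium (2.93) markers were also highest there. Library 1 had the lowest mean log2 level of the spermatid (14.91), B cell (6.93) and endothelial (6.90) markers. These shares are a description, and no difference between roles was tested. No such count over all models called higher is given, so these counts are not shown to be particular to the members.

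**Figure D4:**
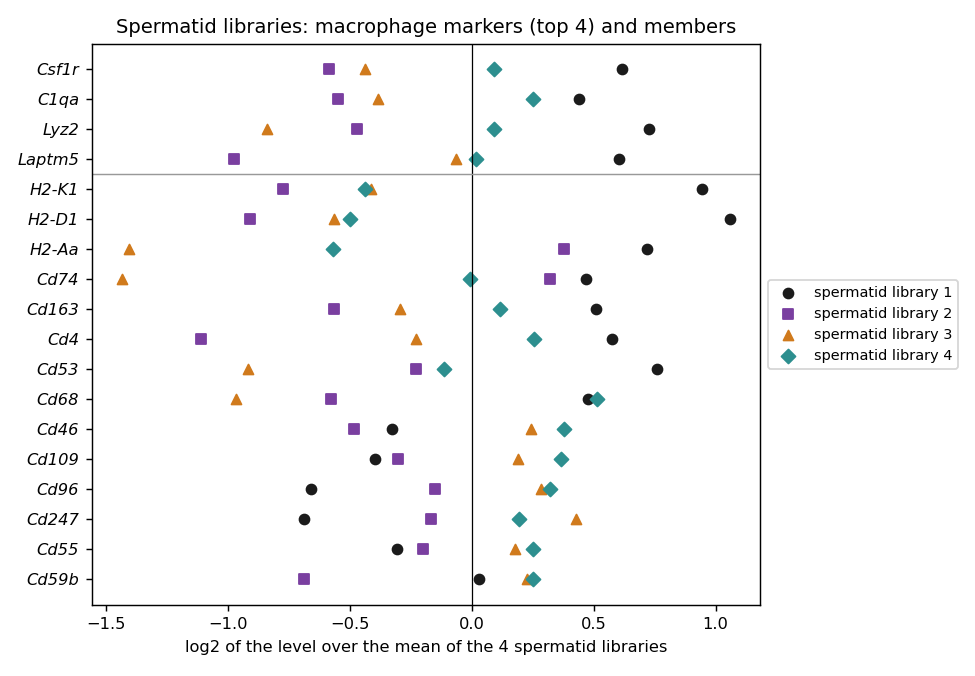
Level of each gene in each spermatid library, as the log2 ratio to the mean of the 4 spermatid libraries, for 4 of the 14 macrophage markers above the line and 14 members below it, all chosen after their values were seen. Library 1 (black) is the highest for the 4 markers shown (Aif1 and Fcgr3, not shown, are lowest there), H2-K1, H2-D1, H2-Aa, Cd74, Cd163, Cd4 and Cd53, and lies below libraries 3 and 4 for Cd46, Cd109, Cd96, Cd247, Cd55 and Cd59b.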

How the data were processed

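The values are a signal that the authors deposited as normalized counts: reads of each gene model scaled by DESeq size factors, with mm10 coordinates. Among the tools in the submitters' processing notes are the aligner STAR 2.4.0 and DESeq. Neither the counting tool nor its strand setting is given in the sources used. Per the labels' protocols the libraries were stranded and made from polyadenylated RNA. In each library 100.0% of values above 0 lay within 10% of a fixed step from a whole number of reads, which gave back whole reads. The table's 8 further columns of per-sample values were not used.

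Values were taken as log2(normalized count + 1), which lowers the fold change of low genes. Models reaching 10 normalized counts in 4 or more libraries were tested with limma 3.58.1 (trend and robust moderation, R 4.3.3), spermatids against spermatocytes, and p-values were adjusted by the Benjamini-Hochberg method over all 28735 models. The test was tested on simulated data. On the recovered reads edgeR 4.0.16 called 9209 models higher and 8733 lower, and DESeq2 1.42.0 called 9182 and 8712, against 9333 and 8563 with limma. Replicate numbers follow record order, and pairs of libraries within a group differed by more than sampling noise (chi-square per degree of freedom of 11.2 or more). The members and lists were chosen with earlier results of these data known. Genes named were the 10 most abundant members, the 8 largest rises and 8 largest falls with a mean of at least 100, and, per role or list, the most abundant member and the largest change in each direction. Other members named were chosen after their values were seen. Where 3 symbols each had more than 1 model, each model was kept. Exon overlaps and lengths are from GENCODE M21, in which 35 of the 119 models overlap another gene and 8 a protein-coding gene. Not all of these overlaps are named. The correction for GC content, a lowess fit of log2 values on the GC content of the longest transcript in each library, was chosen after seeing the data. Some genes that the naming rule covers are not reported here.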

Additional observations from a re-analysis of the deposited data

Results flagged for a closer look

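In 3 of 60 groups of 4 libraries, over 30 members, the highest or lowest library stood apart from the rest by Dixon's criterion. That criterion flags about 1 in 20 independent groups by chance. All 3 lay in spermatid library 1 and are not independent, so whether chance gave them was not tested. H2-K1 had 3704 normalized counts in spermatid library 1 against 1124 to 1444 in the other spermatid libraries. H2-D1 had 1320.1 in the same library against 337 to 448. Cd2 had 107 in spermatid library 1 against 157 to 165 in the others.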

How the results depend on the processing

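The number of members called higher lay between 33 and 56 and that called lower between 9 and 15 under all alternatives, against 48 and 13. The lowest count of rises, 33, came from the filter of 50 normalized counts, under which 53 members were tested, and the highest, 56, from no filter on low values, under which 112 were. Leaving out each library in turn gave 47 to 49 higher and 10 to 13 lower. Without spermatocyte libraries 3 and 4 49 were higher and 9 lower, and after the GC correction 44 and 14. Scaling moved the median log2 fold change of all models from -0.01 to -0.44 with equal totals and -0.36 with quantile normalization. Over 18188 models with a GC value the GC correction moved it from 0.25 to -0.32, and 46.05% instead of 62.7% of all calls were then higher. Of the called values, pathway genes included, the GC correction moved 32 by over 1.5 times and a pseudocount of 8 moved 22, and the cause was not tested.

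Values that changed sign belonged to genes that were not called. With equal totals they were -0.26 for Cd164, -0.27 for Cd244, -0.0081 for Cd3d, -0.0033 for Cd69 and -0.0255 for Cd80. With quantile normalization they were -0.40 for Cd164 and -0.16 for Cd244. After the GC correction they were -0.75 for Cd164, -0.51 for Cd244, -0.0468 for Cd3d, -1.06 for Cd69 and -0.49 for Cd80. By edgeR and DESeq2 both Cd244 (-0.0344 and -0.0339) and Cd69 (-0.27 and -0.26) turned, and with a pseudocount of 8 Cd69 was at -0.0276. Without spermatocyte libraries 3 and 4 the values were -0.16 for Cd164, -0.28 for Cd244, -0.50 for Cd69 and 0.64 for H2-M3. Leaving out a single library gave -0.0978 to 0.299 for Cd164, -0.216 to 0.504 for Cd244, -0.67 to 0.797 for Cd69, -0.18 to 0.0662 for H2-M10.2 and -0.658 to 0.112 for H2-M3. No paired analysis was possible because the labels give the libraries no replicate numbers.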
